A study of Mus musculus with 5 samples.

Results

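Keratins and bile duct genes were examined in the livers of ethanol-fed mice through 8 genes: the keratins Krt7, Krt8, Krt18, Krt19 and Krt23, the transcription factor gene Sox9, the adhesion molecule gene Epcam and Spp1, which encodes osteopontin. The genes were chosen by name, and every non-control probe whose RefSeq identifier belongs to one of them was kept, which gave 11 probes on 29 spots per array, for 8 of the 17016 named genes on the array. Sox9 had 3 probes, Krt8 had 2 and each of the others had 1. RNA came from 5 liver samples of male C57BL/6N mice that had eaten an ethanol diet for 8 weeks and had then received 3 ethanol binges of 5 g per kg. On each of the 5 2-colour Agilent arrays the liver cDNA carried Cy5, and Cy3 marked a purchased RNA, named in the labels as Ambion Mouse Assorted Total RNA with the strain C57BL/6N and the tissue liver. Both channels therefore carry RNA labelled as liver, and the animals behind the purchased RNA have no diet in the labels. No array had the dyes exchanged and no liver of a control diet was analysed here, so each value sets an ethanol-fed liver against the purchased reference RNA and none measures the effect of ethanol. The 5 samples are called livers 1 to 5. Nothing in the labels tells whether each came from its own animal, so p-values cover only the spread among these samples and this spread may be technical.

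Keratins are the intermediate filament proteins of epithelial cells, and each filament pairs an acidic type I keratin with a basic type II keratin. Hepatocytes rely on the pair encoded by Krt8 and Krt18, while the cells of bile ducts carry this pair together with the products of Krt7 and Krt19. In human alcoholic liver disease the Krt8 and Krt18 products are the main proteins of Mallory-Denk bodies, and in damaged livers cells of a ductal character, marked by Krt7, Krt19, Sox9, Epcam and osteopontin, increase in number, which is known as the ductular reaction.

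The promoter windows of Krt8 and Krt18 are printed because the livers fell on the same sides of the reference RNA in both genes, with outlier spots kept. Only livers 2 and 3 had usable Krt18 spots, and this likeness was not tested. The window of Krt7 is printed because it is a keratin gene of the same chromosome whose ratio varied about as much as that of a typical probe. Each window holds the 250 bases before the annotated start in RefSeq's GRCm38.p6, 5′ to 3′ in the direction of the gene, and capitals mark matches to the motifs searched. Krt8 lies on the minus strand (chr15:102004343-102004592), and Krt18 (chr15:102027966-102028215) and Krt7 (chr15:101412153-101412402) lie on the plus strand.
Krt8: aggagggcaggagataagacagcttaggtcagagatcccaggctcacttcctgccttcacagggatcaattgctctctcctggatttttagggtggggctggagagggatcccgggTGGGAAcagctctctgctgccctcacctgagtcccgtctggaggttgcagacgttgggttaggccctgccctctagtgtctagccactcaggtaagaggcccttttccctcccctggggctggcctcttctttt
Krt18: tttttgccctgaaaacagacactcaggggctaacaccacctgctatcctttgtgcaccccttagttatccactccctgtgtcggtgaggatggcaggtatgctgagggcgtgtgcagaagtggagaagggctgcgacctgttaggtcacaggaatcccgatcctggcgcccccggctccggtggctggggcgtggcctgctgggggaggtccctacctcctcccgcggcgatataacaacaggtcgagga
Krt7: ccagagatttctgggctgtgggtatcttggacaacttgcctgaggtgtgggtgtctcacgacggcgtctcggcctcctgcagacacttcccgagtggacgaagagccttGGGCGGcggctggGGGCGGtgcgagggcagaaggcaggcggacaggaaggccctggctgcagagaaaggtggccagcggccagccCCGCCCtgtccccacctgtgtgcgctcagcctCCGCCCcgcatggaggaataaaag
The 5 motifs searched on both strands were the TATA box TATAAA, the GC box GGGCGG, the CCAAT box CCAAT, the AP-1 site TGANTCA and TGGGAA, the core bound by RBPJ, the DNA-binding partner of Notch. The Krt8 window held 1 TGGGAA, 134 to 129 bases before the start, a motif found in 21.6% of 32851 windows of the same length. The Krt7 window held 4 GC boxes, and 32.7% of all windows held at least 1. No match was found in the Krt18 window, which says only that these letters are not in it. TATAAA was present in 12.4% of all windows, CCAAT in 33.8% and TGANTCA in 6.7%. Of the other windows, that of Epcam held 1 GC box, the window before the first annotated start of Spp1 held 1 TATAAA and 1 CCAAT, and that of Krt23 held none of the 5. Promoter entries were found for 6 of the 8 genes.

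The median probe had a background-subtracted signal of 78.4, 126, 177, 125 and 111 in the channel of livers 1 to 5, against 75.5, 108, 121, 132 and 151 in the reference channel of the same arrays. Spots well above background made up 77.3% to 81.2% of the liver channel and 69.9% to 78.4% of the reference channel, and no spot was saturated. The scanner software marked between 2.32% and 4.05% of spots per array as outliers, and these were left out. Across genes, which are not independent replicates, the log2 ratios of pairs of livers correlated with r between 0.39 and 0.76. All values below are log2 ratios of liver over reference RNA after loess normalization within the array, unless they are called signals. A signal is the brightness of a spot above its local background, in scanner units. Each of the 11 probes was well above background on every array, in the liver channel and in the reference channel, although Krt19 and Krt23 were dim. The same held for probes of genes of other tissues, such as the hair follicle keratin Krt71 and the kidney tubule marker Aqp2. Being above background therefore does not by itself show RNA of bile duct cells. In whole tissue, fewer cells of a type and less RNA per cell cannot be told apart.

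Relative to the reference RNA, none of the 8 genes was higher and 3 were lower in the ethanol-fed livers: Krt19, Krt23 and Spp1. By gene, 7 of the 8 were tested, since Krt18 kept only 2 usable spots. None was higher and 3 were lower at an adjusted p below 0.05 (limma, mean log2 ratio against 0, Benjamini-Hochberg adjustment over 31887 probes). Over the 14917 genes tested, 14.5% were higher and 13.0% were lower by the same rule, 27.5% in all, and so did 27.7% of all tested probes. Without liver 4 fewer genes passed, 1229 higher and 1054 lower, against 2156 and 1939 with all livers. None of the 8 genes reached a 2-fold difference besides, which 0.871% of all genes did upward and 0.429% did downward. The median log2 ratio of the 7 tested genes was -0.21, with 5 below 0 and 2 above, beside a median of -0.02 over all genes.

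**Figure D1:**
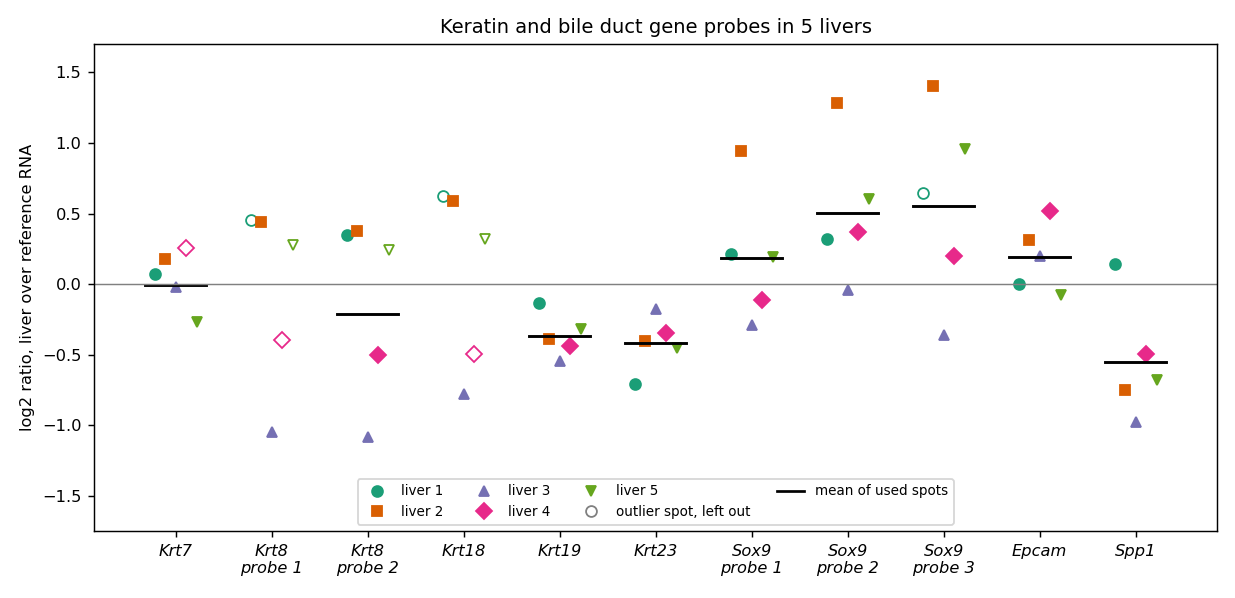
Log2 ratio of liver over reference RNA (vertical axis) for each of the 11 probes (horizontal axis) in livers 1 to 5 (symbols). Bars mark the mean over usable spots of each tested probe, and open symbols are outlier spots, which were left out of the mean. Krt19 and Krt23 lie below 0 in all 5 livers, Spp1 in 4 of 5, and Krt8 and Krt18 lie above 0 in livers 1, 2 and 5 and below 0 in livers 3 and 4.

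Krt8 encodes the type II keratin of the pair used by hepatocytes and duct cells. Its second probe, A_51_P242400, had log2 ratios of 0.35, 0.38, -1.08 and -0.50 in livers 1 to 4, and the spot of liver 5 was an outlier with 0.24. Livers 1, 2 and 5 were thus above the reference RNA and livers 3 and 4 below it. The mean was -0.21 ± 0.71 (SD, n = 4 livers), with a 95% confidence interval of -0.80 to 0.37, and limma's adjusted p was 0.564. The first Krt8 probe, A_51_P242399, had usable spots only in livers 2 and 3, at 0.44 and -1.04, and was not tested. Its 3 outlier spots read 0.45 in liver 1, -0.39 in liver 4 and 0.28 in liver 5, which places the livers on the same sides of 0 as the second probe.

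Krt18 encodes the type I partner of Krt8. Its probe, A_51_P324814, had usable spots in livers 2 and 3, with log2 ratios of 0.59 and -0.78. The outlier spots read 0.62 in liver 1, -0.49 in liver 4 and 0.32 in liver 5. The livers fall on the same sides of 0 as for Krt8, with livers 1, 2 and 5 above and livers 3 and 4 below. With outlier spots kept, the mean was 0.05 ± 0.64 (SD, n = 5 livers; limma adjusted p = 0.875), in a setting where 29.4% of genes passed the test in either direction. Liver 1, the highest, was 2.63 times liver 3, the lowest, with outlier spots kept, and 2.75 times separated liver 2 from liver 3 in the second Krt8 probe.

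Once scaled to the median signal of each channel, Krt8 and Krt18 differed more between arrays in the liver channel than in the reference channel. The background-subtracted signal of the second Krt8 probe was 10850, 21145, 9883, 11053 and 17380 in livers 1 to 5, against 8462, 16690, 17902, 19005 and 20718 in the reference RNA on the same arrays. Divided by the median signal of its channel, it was 138, 168, 55.9, 88.2 and 156 in the livers, against 112, 154, 148, 143 and 137 in the reference RNA. By scaled signal, livers 3 and 4 were the low ones within the liver channel. The reference channel, which held the same RNA each time, was lowest on the array of liver 1. Without the scaling, livers 1, 3 and 4 were close to one another, at 10850, 9883 and 11053. The reference RNA had 8462, 17902 and 19005 on their arrays, so the channel that differs depends on the scaling. For Krt18 these scaled signals were 161, 181, 66.6, 89.1 and 162 in the livers, against 108, 140, 142, 143 and 134 in the reference RNA. On the log2 scale the SD of the scaled signals over arrays was 0.67 in the liver channel and 0.18 in the reference channel for Krt8. For Krt18 it was 0.64 and 0.17. Over all 26783 probes well above background throughout, the median SD was 0.31 in the liver channel and 0.21 in the reference channel, and 70.7% of probes had the larger SD in the liver channel. Liver 3 also had the highest median signal of all livers, and the part of array brightness in these values was not tested.

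**Figure D2:**
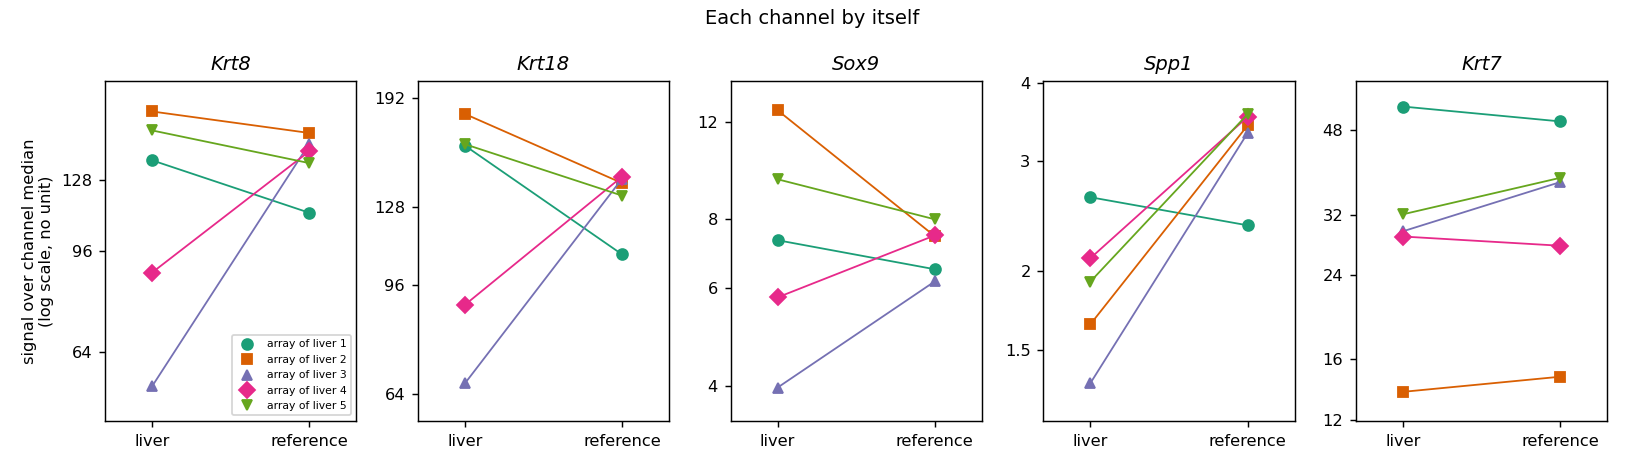
Signal over the median of its channel (vertical axis, log scale, no unit) in the liver channel and the reference channel of each array, for the second Krt8 probe, Krt18, the first Sox9 probe, Spp1 and Krt7, with all spots included. Krt8 runs from 55.9 to 168 in the livers and from 112 to 154 in the reference RNA, while Krt7 shifts in both channels of an array together.

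Krt7, a type II keratin of ducts and other simple epithelia, was level with the reference RNA. Its log2 ratios were 0.08, 0.18, -0.02 and -0.27 in livers 1, 2, 3 and 5, and the outlier spot of liver 4 read 0.25. The mean was -0.01 ± 0.19 (SD, n = 4 livers; 95% confidence interval -0.23 to 0.21; limma adjusted p = 0.961). The scaled signals behind these ratios were 53.7, 13.7, 29.6, 28.8 and 32.1 in livers 1 to 5, against 50.01, 14.7, 37.4, 27.6 and 38.2 in the reference RNA. Both channels were highest on the array of liver 1 and lowest on that of liver 2, with SDs of 0.70 and 0.67 on the log2 scale, although the reference RNA was the same on every array.

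Krt19, the type I keratin most used to mark bile ducts, was below the reference RNA in all 5 livers. Its log2 ratios were -0.14, -0.39, -0.55, -0.44 and -0.32 in livers 1 to 5. Liver 1 was nearest to the reference RNA and liver 3 farthest from it. The mean was -0.37 ± 0.15 (SD, n = 5; limma adjusted p = 0.00726), which is 1.29-fold lower. The probe was dim, with signals of 47.8 to 96.3 in the livers, against 61.7 to 125 in the reference RNA. Adding 50 to every signal in the background correction draws the ratios of dim probes towards 0. The mean was -0.74 in the authors' deposited table of log2 ratios, which was made without that step. In that table liver 1 was level with the reference RNA at -0.002, and the other livers lay between -1.05 and -0.81. The signal of liver 1 was 64.8, against 61.7 in the reference RNA.

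Krt23, a type I keratin, was likewise below the reference RNA in every liver, with log2 ratios of -0.71, -0.40, -0.18, -0.35 and -0.45. Liver 1 was lowest and liver 3 highest, the opposite of their order in Krt19. The mean was -0.42 ± 0.19 (SD, n = 5; limma adjusted p = 0.00578), or 1.33-fold lower. Signals were 15.0, 39.1, 101, 50.04 and 30.9 in livers 1 to 5, against 65.95, 57.8, 88.2, 78.3 and 85.6 in the reference RNA. In the authors' deposited table the mean log2 ratio was -1.08, past the 2-fold mark. Both Krt19 and Krt23 passed the test in 15 of 15 alternative settings, leaving out each liver among them. Each gene has 1 probe, so changes of filter, prior, probe choice or unit of adjustment could not alter its ratio.

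Sox9 encodes a transcription factor of bile duct and progenitor cells, and its 3 probes put the livers in a similar order but at different distances from the reference RNA. The brightest, A_51_P451606, had log2 ratios of 0.21, 0.94, -0.29, -0.11 and 0.19 in livers 1 to 5, with a mean of 0.19 ± 0.47 (SD, n = 5; limma adjusted p = 0.398). The second, A_52_P214630, had 0.32, 1.28, -0.04, 0.37 and 0.60, with a mean of 0.50 ± 0.49 (SD, n = 5; limma adjusted p = 0.0535). Probe A_52_P577484, had 1.40, -0.36, 0.20 and 0.96 in livers 2 to 5, with 0.64 in the outlier spot of liver 1 and a mean of 0.55 ± 0.78 (SD, n = 4; limma adjusted p = 0.190). Liver 2 was the highest and liver 3 the lowest with each of the 3 probes, and the highest was 2.36, 2.50 and 3.38 times the lowest. None of the 3 probes passed the test. The second probe passed it in 5 of 13 alternatives, with an adjusted p between 0.0235 and 0.136 over all of them, and the third passed it without liver 3, at 0.85 (limma adjusted p = 0.0353).

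For Sox9 the share of the 2 channels in the spread depended on the probe. The scaled signal of the first probe was 7.34, 12.6, 3.97, 5.78 and 9.46 in livers 1 to 5, against 6.50, 7.46, 6.18, 7.48 and 8.00 in the reference RNA. The SD over arrays was 0.64 in the liver channel and 0.16 in the reference channel on the log2 scale. For the second probe these SDs were 0.67 and 0.46, so the reference channel of that dim probe varied as well. The second Sox9 probe was spotted 10 times per array, which gives the error within an array. Its usable spots ran from 1.18 to 1.48 in liver 2 and from -0.25 to 0.13 in liver 3, without overlap. The SD between spots of one array was 0.084 to 0.13, which is spot error alone.

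Epcam, an adhesion molecule of bile duct epithelium, was not distinguishable from the reference RNA. Its log2 ratios were 0.00, 0.31, 0.20, 0.52 and -0.08 in livers 1 to 5, highest in liver 4 and lowest in liver 5. The mean was 0.19 ± 0.24 (SD, n = 5; 95% confidence interval -0.03 to 0.42; limma adjusted p = 0.177). Signals were 282, 430, 327, 386 and 230 in the livers, against 270, 325, 195, 306 and 322 in the reference RNA.

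Spp1 encodes osteopontin, a secreted phosphoprotein that in liver is made by duct cells and, after injury, by macrophages and stellate cells. Its log2 ratios were 0.14, -0.75, -0.97, -0.49 and -0.68 in livers 1 to 5. Liver 1 stood apart at or just above the reference RNA, while livers 2 to 5 were all below it. The mean was -0.55 ± 0.42 (SD, n = 5; limma adjusted p = 0.0219), or 1.47-fold lower. This call did not hold without liver 2 (-0.50; adjusted p = 0.0689), liver 3 (-0.45; 0.0695), liver 4 (-0.57; 0.0592) or liver 5 (-0.52; 0.0625) in the limma fit, and it held without liver 1, at -0.72 (adjusted p = 0.00176). Spp1 passed the test in 11 of 15 alternatives.

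The Spp1 probe was also spotted 10 times per array. The usable spots of liver 1 lay between -0.00055 and 0.40, and those of livers 2 to 5 all lay between -1.13 and -0.43. The SD between spots of one array was 0.062 to 0.13, a technical error within an array that leaves out variation between arrays, labellings and samples. The scaled signal was 2.63, 1.65, 1.33, 2.10 and 1.93 in livers 1 to 5, against 2.37, 3.42, 3.33, 3.53 and 3.57 in the reference RNA. By scaled signal, liver 1 was highest in the liver channel, and its array was lowest in the reference channel, at 2.37 against 3.33 to 3.57. Without the scaling, the signals were 206, 207, 235, 263 and 215 in livers 1 to 5, against 179, 370, 403, 468 and 540 in the reference RNA. Liver 1 was then lowest in the liver channel. Its array was again lowest in the reference channel, which held the same RNA each time.

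**Figure D3:**
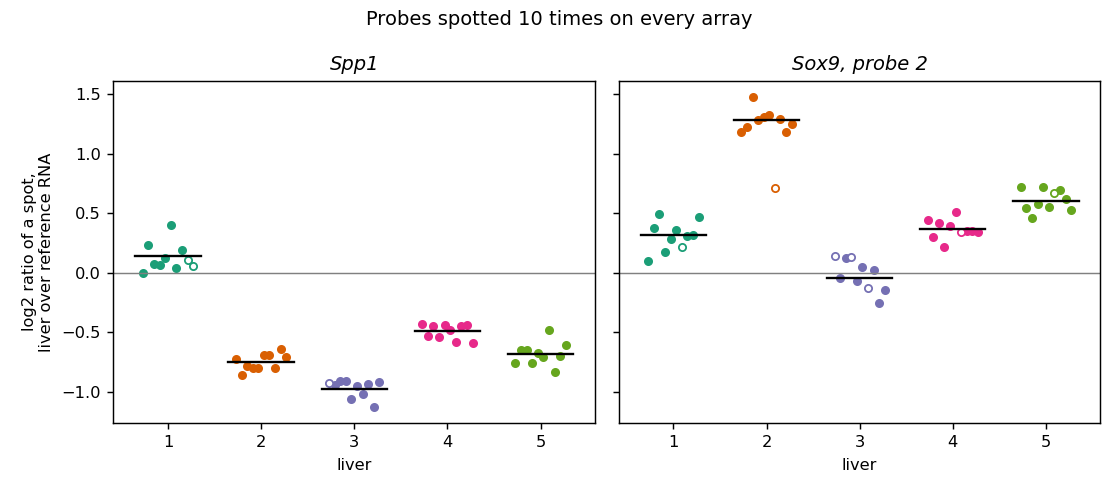
Log2 ratio of each of the 10 spots per array (filled points, with outlier spots open) of the Spp1 probe and of the second Sox9 probe in livers 1 to 5 (horizontal axis), with the mean of the usable spots of each array as a bar. For Spp1 the usable spots of liver 1 (-0.00055 to 0.40) lie above those of the other livers, and for Sox9 the usable spots of liver 2 (1.18 to 1.48) do.

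The spread between livers was tested against that of probes of like brightness (F test of the variance of a probe against limma's prior variance, upper tail). The test covered 13216 genes measured well above background in each channel of every array. No gene passed, so 0% were called, and 747 genes (5.65%) had an unadjusted p below 0.05. The prior variance was fitted to these same probes, and at most 5 livers per probe leave the test little power. Not passing therefore does not show an ordinary spread. Among the 7 tested keratin and bile duct genes, each by its brightest probe, 0 passed and 1, Krt8, had an unadjusted p below 0.05. Among their 9 tested probes there were 3, the second Krt8 probe, the second Sox9 probe and A_52_P577484. The SD of Krt8 (0.71) was larger than that of 98.7% of probes, with an unadjusted p of 0.00786 and an adjusted p of 0.749 (limma prior variance). For the 3 Sox9 probes the SDs were larger than those of 94.9%, 95.5% and 99.1% of probes, and for Spp1 larger than that of 93.0%. Krt18 was larger than 98.0% with outlier spots kept. Krt19 and Krt7 were nearer the middle, where the SD of Krt19 (0.15) exceeded that of 35.7% of probes and that of Krt7 (0.19) exceeded that of 52.6%, beside a median SD of 0.18 over all probes.

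**Figure D4:**
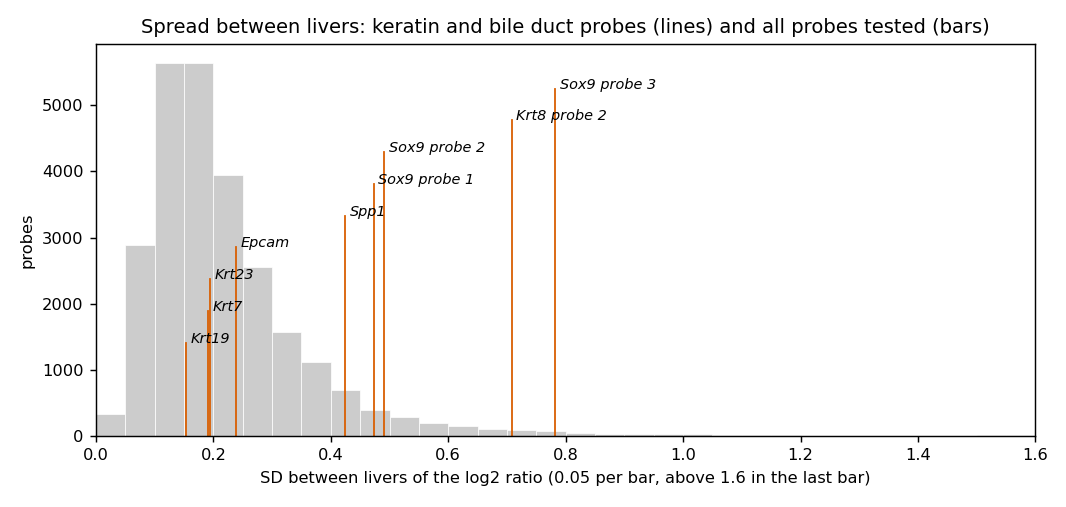
Number of probes (vertical axis) by the SD of their log2 ratio over the livers (horizontal axis) for the 25893 probes tested for spread, with lines at the keratin and bile duct probes. Krt19 and Krt7 lie near the middle at 0.15 and 0.19, and Krt8 and the third Sox9 probe lie in the right tail at 0.71 and 0.78.

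For the tested members with the largest SD among those with values in all 5 livers, the genes with the most similar pattern were sought among 11837 genes. Likeness was the root mean square difference between the centred log2 ratios over the 5 livers, divided by the SD of the member, so that 0 is an identical pattern. For the first Sox9 probe they were Rnf26 at 0.13, Irak3 at 0.13 and Eppk1 at 0.16. The log2 ratios of Eppk1, which encodes the keratin-binding cytolinker epiplakin, were 0.32, 0.99, -0.25, -0.14 and 0.39 in livers 1 to 5, so liver 2 was high and livers 3 and 4 were low as for Sox9. For Spp1 they were Obp2a at 0.25, Kng1 at 0.28 and Lss at 0.28, and all of them were highest in liver 1. These values describe 5 arrays and carry no test.

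The rest of the keratin family lay on both sides of the reference RNA, as all genes did. Of 34 other keratins with a probe, 30 were tested, 6 were higher and 3 were lower, with a median log2 ratio of 0.09. Over all genes 14.5% were higher and 13.0% were lower. The highest by mean were Krt71, a hair follicle keratin, at 0.79 ± 0.29 (SD, n = 3; limma adjusted p = 0.00532), and Krt34, a hair keratin, at 0.59 ± 0.69 (n = 5), which did not pass. The lowest were Krt14, of basal epidermal cells, at -0.59 ± 0.13 (n = 5; limma adjusted p = 0.00146), and Krt79 at -0.46 ± 0.12 (n = 5; limma adjusted p = 0.00351). These are keratins of skin and hair, and of the markers of stratified epithelium Lor was higher (0.21), none of 4 tested was lower, and the part of such cells was not tested.

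Among other genes that mark bile ducts, the count that passed was close to that of all genes. Of 24 with a probe, 21 were tested, 1 was higher and 4 were lower, with a median log2 ratio of -0.03, beside 14.5% higher and 13.0% lower over all genes. The higher one was Sox4, a transcription factor that acts with Sox9 in duct formation, at 0.58 ± 0.16 (SD, n = 4; limma adjusted p = 0.00389). Pkhd1, which encodes the ciliary protein fibrocystin, had 0.50 ± 0.58 (n = 5) with its brightest probe and 0.00 with another, and neither passed. The lowest was Onecut1, the gene of the transcription factor HNF6, which hepatocytes also express, at -0.96 ± 0.16 (SD, n = 5; limma adjusted p = 0.000217), followed by Cldn7, a tight junction claudin, at -0.43 ± 0.39 (n = 5; limma adjusted p = 0.0414). Without liver 3 or without liver 4 the list had 2 lower genes, and without liver 1 it had 2 higher ones. With median centring, and in the authors' deposited table, it had 0 higher genes, so the Sox4 call was not kept there.

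Genes of desmosomes and of other proteins that link keratin filaments did not pass the test in either direction. All 8 with a probe were tested, with a median of -0.06. Dsp, the desmoplakin gene, had no named probe and was not covered. Eppk1 had 0.26 ± 0.49 and Pkp2, which encodes plakophilin 2, had 0.11 ± 0.29, while Evpl, which encodes envoplakin, had -0.25 ± 0.70 and Dsg2, a desmosomal cadherin, had -0.20 ± 0.16 (SD, n = 5 each). Without liver 2, 1 of the 8 was lower. Among genes of proteins found in Mallory-Denk bodies, 7 of 8 with a probe were tested. Of these, 1 was higher and 2 were lower, with a median of -0.30. Sqstm1 had a probe but was not tested, and Hspa1b had no named probe. Both lists stand beside 14.5% higher and 13.0% lower over all genes. Ubd, the ubiquitin-like modifier FAT10, was higher at 0.60 ± 0.45 (SD, n = 5; limma adjusted p = 0.0185). The small heat shock protein gene Hspb1 was lower at -0.73 ± 0.30 (n = 5; limma adjusted p = 0.00234) and the inducible chaperone gene Hspa1a at -0.50 ± 0.32 (n = 5; limma adjusted p = 0.0138). Ubb, a ubiquitin gene, had -0.07 ± 0.10 and did not pass. Another probe of the small heat shock protein gene Cryab passed as lower (-0.22; limma adjusted p = 0.0304), and its brightest did not (-0.22; limma adjusted p = 0.101). The Ubd call was lost without liver 2, 3 or 4, each of which left 0 higher genes in this list.

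Of the Notch and YAP genes that direct hepatic cells to the duct fate, 13 of 18 were tested. Of these, 1 was higher and 4 were lower, with a median of -0.16, beside 14.5% higher and 13.0% lower over all genes. Jag1, the Notch ligand of duct formation, had 0.66 ± 0.69 (SD, n = 5) with its brightest probe, which did not pass (limma adjusted p = 0.0723), and -0.25 with another, which did (limma adjusted p = 0.0168), so its probes differ in sign. Another probe of the Notch target Heyl (0.34; limma adjusted p = 0.0238) and another of the receptor gene Notch2 (0.18; limma adjusted p = 0.0357) were higher, while the brightest probes had -0.04 and -0.05 and did not pass. Tead2, a DNA-binding partner of YAP, was higher at 0.47 ± 0.29 (n = 4; limma adjusted p = 0.0248), a call lost without liver 2, 3 or 4 and in the authors' deposited table, while 2 genes of the list were higher without liver 1. The YAP target Ccn1 was lower at -0.73 ± 0.21 (n = 5; limma adjusted p = 0.000795), and so was Dll1, a Notch ligand, at -0.56 ± 0.23 (n = 5; limma adjusted p = 0.00356). Of 8 tested osteopontin receptor genes, none was higher and 1 was lower, beside the same shares of all genes, with a median of -0.13. It was Itga9, the α9 integrin, at -0.46 ± 0.11 (SD, n = 5; limma adjusted p = 0.00339). Itgb1, the β1 integrin, had -0.23 ± 0.18 (n = 4) with its brightest probe and 0.49 with another (limma adjusted p = 0.00525), so its direction depends on the probe. The brightest probe of Cd44, a hyaluronan and osteopontin receptor, did not pass (-0.16; limma adjusted p = 0.328), but both its other probes were lower, at -0.20 (limma adjusted p = 0.0293) and -0.32 (limma adjusted p = 0.0110). Without liver 3, 2 receptor genes were lower. The nearest to 0 were Itgb3 at -0.00460 and Itga5 at -0.03.

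**Figure D5:**
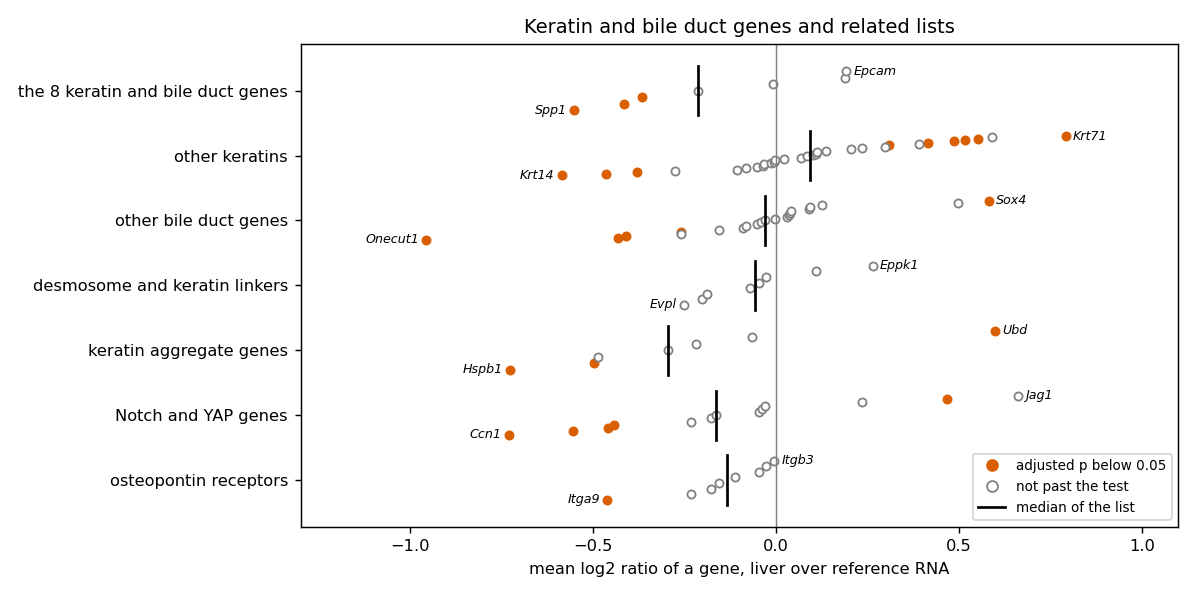
Log2 ratio of liver over reference RNA (horizontal axis) of each tested gene among the keratin and bile duct genes (7 of 8, without Krt18) and the related lists (vertical axis), with the median of each list. Medians lie between -0.30 (genes of keratin aggregates) and 0.09 (other keratins), and filled points are genes that passed the test.

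Markers of other liver cells were set beside these values. Their counts, and those of the organ markers below, stand beside 14.5% higher and 13.0% lower over all genes. Of 6 tested hepatocyte markers 3 were higher and none was lower. Alb, the albumin gene, had 1.15 ± 0.42 (SD, n = 5; limma adjusted p = 0.00113) and passed the 2-fold mark, and Apoa1 had 0.94 ± 0.29 (n = 5; limma adjusted p = 0.000708). The mean log2 ratio of the list was 0.68, 0.49, 0.37, 0.62 and 0.69 in livers 1 to 5, lowest in liver 3. Krt8, Krt18, Sox9, Krt19 and Spp1 were lowest in liver 3 too, while Krt23 was highest there, and Krt7 and Epcam were lowest in liver 5. Within the hepatocyte list, Apoa1 and Trf were lowest in liver 3, Alb, Ttr and Cyp2e1 were not, and Apob had no value there. A link between these patterns was not tested. The summed signal of the list was 405198 to 519312 in the livers, against 225717 to 353415 in the reference RNA. Of 6 tested macrophage and Kupffer cell markers, none was higher and 3 were lower, led by Lyz2, which encodes lysozyme, at -0.70 ± 0.28 (n = 5; limma adjusted p = 0.00248) and Clec4f at -0.52 ± 0.35 (n = 4; limma adjusted p = 0.0220). The brightest probe of Csf1r, a macrophage growth factor receptor gene, had -0.06, while its other probes had -0.74 (limma adjusted p = 0.000729) and 0.27 (limma adjusted p = 0.138). The summed signal of the macrophage list was 4469 to 6463 in the livers, against 4861 to 7898 in the reference RNA. Of 8 stellate cell and fibroblast markers 2 were lower, Col1a1 at -1.0 ± 0.58 (n = 5; limma adjusted p = 0.00796) and -0.10 and -0.39 with its other probes, and Reln at -0.38 ± 0.34 (n = 5; limma adjusted p = 0.0492). The summed signal of these was 10871 to 16185 in the livers, against 10335 to 18304 in the reference RNA. Of 5 sinusoidal endothelial markers 2 were lower, Stab2 (-0.43) and Pecam1 (-0.34), with a summed signal of 1433 to 2803 in the livers, against 1873 to 3794 in the reference RNA. No tested marker of these lists was below background on every array. The part of these cell types in the values of Krt19, Krt23 and Spp1 was not tested.

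Markers of organs other than liver were examined because the reference is named an assorted RNA. Of 5 pancreas markers 1 was lower, Cpa1 (-0.42), with a summed signal of 285 to 710 in the livers, against 440 to 765 in the reference RNA, where 2 of the 5 were never well above background. Of 5 kidney tubule markers Kap was higher (0.58) and Slc12a1 lower (-0.24). Of 2 tested intestine markers Fabp2 was lower (-0.67), with a summed signal of 2223 to 7375 in the livers, against 5277 to 8152 in the reference RNA. Of 2 tested mesothelium markers Gpm6a was higher (0.48) and Msln lower (-0.54). Their part in the keratin and bile duct values was not tested.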

How the data were processed

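RNA of 5 livers was set against 1 reference RNA on 5 arrays, 1 per slide. The deposited scanner files hold spot intensity values in both channels, made by the authors with Agilent Feature Extraction 11.5.1.1 (build mm8), per the file headers, and the log10 ratio of processed intensities. A deposited table by the authors gives log2 ratios of 40599 probes. Within a tolerance of 0.001, 99.7% of its values equalled the log2 of processed liver over processed reference intensity, which settles its scale and direction. It held 10 of the 11 probes reported, all but that of Krt18, and was not centred further (medians -0.03, -0.07, -0.08, -0.10 and -0.03).

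Median intensities were corrected with normexp (offset 50), since the files hold no mean intensity, and normalized by loess with control and outlier spots at weight 0 (limma 3.58.1, R 4.3.3). Outlier spots were left out and spots of a probe averaged. RefSeq identifiers named 24375 of 41174 probes through a GRCm38.p6 table, and 16799 stayed unnamed. Tested probes had 3 or more values and were well above background on 3 or more arrays in at least 1 channel. They were tested with limma (intercept only, trended robust prior). Each gene took the value of its brightest tested probe. Adjusted p below 0.05 passed, which is what a call means above, and genes at least 2-fold besides were counted apart. Signals are given with all spots included. The fit was tested on simulated data.

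The genes, lists, tests and alternatives were chosen with earlier results of these data known. Named genes were the 8 genes with every probe, each list member that passed at 2-fold, and otherwise up to the 2 highest and 2 lowest of a list. In the marker lists not every member that passed is named. Csf1r, Ttr, Cyp2e1 and Apob are named although their brightest probes did not pass. Cryab, Heyl, Notch2 and Cd44 are named outside this rule because another probe of each passed, a choice made by the result. Trf is outside the rule as well. The number of arrays limits the precision, the fit leaves out the spread of the reference RNA, and no dye effect cancels. Alternatives changed the background correction, normalization, source of ratios, filter, prior, probe choice, unit of adjustment, outlier spots and livers included.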

Additional observations from a re-analysis of the deposited data

How the results depend on the processing

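No paired analysis was possible because the arrays hold 1 group. Slide and scan as a block were not run, since each slide held 1 array. Under 15 alternatives Krt19 ranged from -0.74 to -0.31 and Krt23 from -1.08 to -0.34, both passing each time, and Spp1 from -0.72 to -0.45. Several of these alternatives could not alter the ratio of a gene with 1 probe. Values of Krt7 and Krt8 that missed the test changed sign: Krt7 was 0.024 with processed signals, 0.068 in the authors' deposited table and 0.026 with outlier spots kept. Leaving out each liver gave -0.070 to 0.079 for Krt7 (highest without liver 5), -0.41 to 0.076 for Krt8 (highest without liver 3) and -0.00055 to 0.31 for the first Sox9 probe (lowest without liver 2). The second Sox9 probe passed at 0.96 with processed signals and 0.96 in the deposited table, at 0.50 with scaling between arrays and with outlier spots kept, and at 0.64 without liver 3. The cause was not tested. Of 300 counts under the alternatives, 276 stayed within 1.5 times the reported count. Counts reported as 0 that stayed 0 are among these 276. The 1 gene at 2-fold with processed signals and in the deposited table was Krt23. Genes past the spread test numbered 71 with median centring and 0 otherwise. Osteopontin receptors below the reference RNA were 2 with processed signals, 3 in the deposited table and 2 with probes averaged. Bile duct genes above it were 0 with median centring and 0 in the deposited table, Notch and YAP genes above it 0 in the deposited table, and desmosome genes below it 1 with probes averaged. Leaving out each liver gave 1229 to 1919 genes above and 1054 to 1487 below (the lowest of both without liver 4), 2 to 3 of the 8 genes below, 0 to 1 desmosome genes below, 0 to 1 keratin aggregate genes above, 0 to 2 Notch and YAP genes above, 1 to 2 osteopontin receptors below, and 1 to 2 other bile duct genes above with 2 to 4 below. Dim probes such as Krt19 and Krt23 limit how far ratios can be read.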
